A study of Homo sapiens with 12 samples.

Results

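Gene expression after the 2-drug treatment was set against that of control cells in MDA-MB-468, an established triple-negative human breast cancer line that carries extra copies of EGFR. The compared libraries are 6 of the 12 in the series: 3 from control cells and 3 from cells given sonidegib (10 µM, described as a pretreatment of 72 h) and SAHA (10 µM, 12 h). The other 6 libraries, 3 of SAHA alone (10 µM, 12 h) and 3 of sonidegib alone (10 µM, 72 h), shared the same line and are used here to place the combination. Genes were chosen by level only: of 59324 genes in the table, the 13937 that averaged 1 TPM or more over the 12 libraries were compared (TPM, a transcript's length-corrected share of its library). The labels do not say how long control cells were kept, what vehicle they received, or whether sonidegib was still present while SAHA was. Separate cultures are not named for the 3 libraries of any group either, so a p-value measures the spread between these libraries, which may be technical. All cells were of 1 line.

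SAHA (vorinostat) blocks the zinc-dependent histone deacetylases, enzymes that take acetyl groups off histones and other proteins; blocking them opens some silent genes and slows others, and p21 (CDKN1A) is its best known target. Sonidegib blocks Smoothened (SMO), the membrane protein through which a Hedgehog ligand, having bound the receptor PTCH1, releases the GLI transcription factors. GLI1, PTCH1 and HHIP are the pathway's usual readouts.

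Control and combination libraries differed in make-up as well as in treatment. The 40 annotated copies of 5S ribosomal RNA, which lacks a poly(A) tail, had a value of 0 in each of the 6 libraries without sonidegib. They summed to 5135.1, 2984.3 and 1487.5 TPM in the combination libraries and to between 1763.1 and 12640.7 TPM in those of sonidegib alone. Mitochondrial ribosomal RNA made up a mean of 0.616% of control and 2.61% of combination libraries, and 1.24% and 2.22% with SAHA and with sonidegib alone. Every combination library thus belongs to the set with 5S RNA and every control library to the set without it, so the set and the treatment cannot be told apart, and no comparison of combination with control exists within 1 set. The combination against sonidegib alone is within 1 set, and that difference is given below for a number of the genes described, though not for all. Depth is unknown, since TPM keep no counts: between 13204 and 13874 genes reached 1 TPM in a library, and correlations of log2 values were 0.9724 to 0.9781 among combination libraries, 0.9789 to 0.9801 among controls and 0.9064 to 0.9117 between the 2 groups.

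The line's own markers were checked first. EGFR was among the high transcripts, at 647, 558 and 664 TPM in control and 566, 537 and 627 TPM in the combination, groups that overlap (log2 change -0.11 ± 0.084 (SE), adjusted p = 0.275). The epithelial markers KRT8, KRT18, KRT5 and EPCAM lay at or above 177.64 TPM in every library. Other markers taken as high in this line were lower in some or all libraries. KRT17 lay at 150.17 to 1472.75 TPM, CDH1 at 18.41 to 49.27 TPM and KRT6B at 14.67 to 85.03 TPM. PGR was listed at 0 in all 12 and ESR1 did not pass 1.76 TPM. ERBB2, taken as absent or low in this line, lay at 9.34 to 11.54 TPM in control and 5.65 to 7.39 TPM in the combination. With sonidegib alone it lay at 22.51 to 26.33 TPM. RB1 transcripts, described as lost in this line, were present at 4.95 to 6.46 TPM in the combination libraries, which says nothing of the protein. Of 10 leukocyte markers 2 were tested, CD14, which fell (log2 change -0.52), and CD68, which rose (1.02); the defining genes PTPRC and CD3E stayed at or under 0.09 TPM in every library. The markers summed to 301.30 to 325.89 TPM in control and 216.56 to 232.02 TPM in combination libraries, nearly all of it CD14. Of 10 fibroblast and endothelial markers 2 were tested (summed level 7.23 to 9.31 TPM in control, 13.65 to 14.61 TPM in the combination), and COL1A1, a collagen chain, rose by 1.13 on the log2 scale while COL1A2, COL3A1 and DCN did not pass 0.35 TPM. None of 7 erythroid and hepatic markers reached the level tested.

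Most measured genes differed between combination and control libraries, a difference in which treatment and set cannot be told apart. With limma on log2(TPM + 1) and Benjamini-Hochberg adjustment, 8883 of 13937 genes (63.7%) had an adjusted p under 0.05: 4140 were higher (29.7%) and 4743 lower (34.0%). All fold changes below are on this log2(TPM + 1) scale, which understates the change of low genes. Changes of at least 2-fold were found for 1089 higher and 1444 lower genes, and the median over all genes was -0.024. The 3 combination libraries lay wholly above the 3 control libraries for 4353 genes (31.2%) and wholly below for 4964 (35.6%). Libraries of each drug alone also differed from the same controls in most genes, SAHA in 8176 (58.7%) and sonidegib in 7712 (55.3%). The combination differed from SAHA alone in 7100 genes (50.9%) and from sonidegib alone in 5370 (38.5%). Lower calls outnumbered higher ones in the deposited scaling but not when libraries were rescaled to the 75th percentile (4769 higher, 4398 lower), quantile normalized (4666 and 4472), or rebuilt from protein-coding genes only (4224 and 4058) or without mitochondrial and ribosomal RNA genes (4548 and 4412).

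To describe the response by function, 39 gene lists with 698 symbols were used, of which 693 were found in the table and 612 reached the test level. Of 62 list and marker genes under that level but not at 0 throughout, fitted without the filter, 9 were called lower and 5 higher (GLI1, DHH, DLL1, SPARC and ZEB1); they are in none of the list counts. Their counts are to be read against the 29.7% called higher and 34.0% called lower among all genes, and their medians against -0.024.

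**Figure D1:**
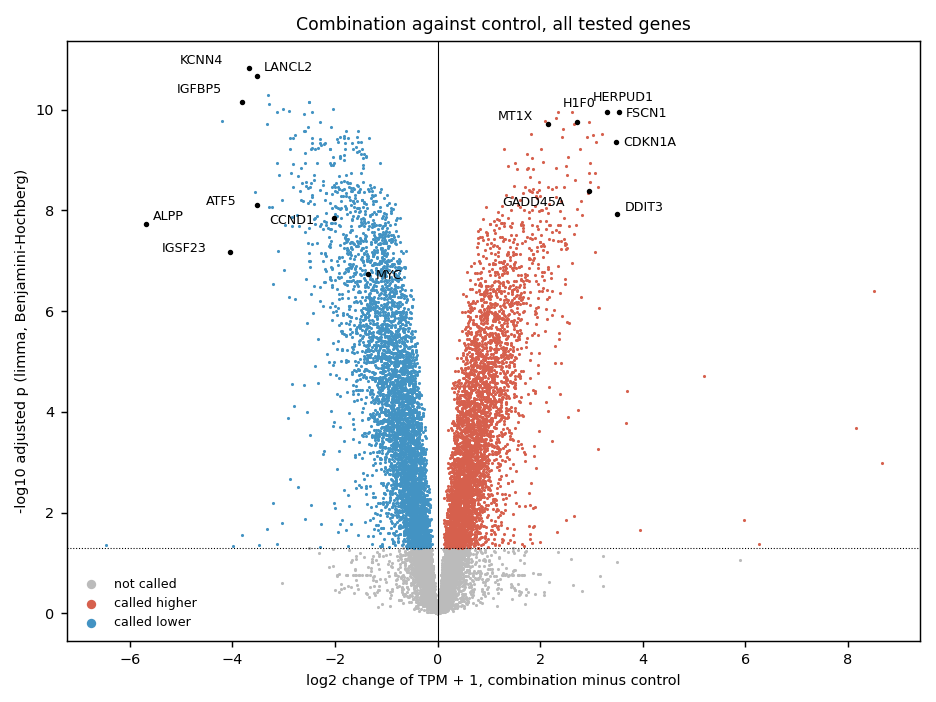
Each point is 1 of the 13937 tested genes, with the log2 change of TPM + 1 (combination minus control) on the horizontal axis and -log10 of the limma adjusted p on the vertical axis; the dotted line marks 0.05. Called genes spread to both sides, 4140 higher and 4743 lower, and most points to the right of 5 are copies of 5S RNA, which control libraries list at 0.

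The largest rises among protein-coding genes joined an actin bundler, stress genes and a cell cycle inhibitor. FSCN1 (fascin, which bundles actin filaments; chr7:5592823-5606655, GRCh38) stood at 1.96, 2.24 and 2.32 TPM in control and 37.8, 33.4 and 35.9 TPM in the combination (log2 change 3.53 ± 0.083 (SE), adjusted p = 1.1e-10). DDIT3 (CHOP, a transcription factor of stressed cells; chr12:57516588-57521737) went from 5.1, 5.38 and 8.96 to 70.0, 92.8 and 83.6 TPM (log2 change 3.50 ± 0.17 (SE), adjusted p = 1.19e-08). CDKN1A (p21, which blocks cyclin-dependent kinases; chr6:36676460-36687339) went from 3.58, 4.32 and 5.24 to 51.8, 60.0 and 63.2 TPM (log2 change 3.47 ± 0.11 (SE), adjusted p = 4.44e-10). The largest rises were chosen among genes whose control and combination libraries did not overlap, so the lack of overlap is by choice. The single drugs placed these genes differently: FSCN1 and CDKN1A were also high with SAHA alone (39.2 ± 3.2 and 113 ± 2.51 TPM, mean ± SD, n = 3), whereas DDIT3 stayed at 5.73 ± 0.34 TPM with SAHA and reached 53.8 ± 4.58 TPM with sonidegib. Within the set with 5S RNA, the combination exceeded sonidegib alone in all of them. The log2 difference was 1.93 ± 0.083 (SE) for FSCN1 (adjusted p = 9.42e-08). It was 2.20 ± 0.105 (SE) for CDKN1A (adjusted p = 1.37e-07). For DDIT3 it was 0.595 ± 0.167 (SE), adjusted p = 0.0153. CDKN1A was lower in the combination than with SAHA alone (log2 difference -0.95 ± 0.11 (SE), adjusted p = 1.99e-05). The rest of the 15 largest rises were HERPUD1, CAPN5 (a calpain protease), AZIN2 (an antizyme inhibitor, which spares ornithine decarboxylase), RAP1GAP (which switches off the GTPase RAP1), LDHD (D-lactate dehydrogenase), LMCD1, TUBA4A (an alpha tubulin), MAPK8IP1 (a scaffold of JNK signalling), ICAM5 and NCAM1 (adhesion molecules best known from neurons), DACT3 (a Wnt antagonist) and GADD45A (a growth arrest and DNA damage gene), with log2 changes from 2.94 to 3.31.

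The largest falls held surface proteins beside factors of splicing and transcription. ALPP (placental alkaline phosphatase; chr2:232378534-232382889) dropped from 74.6, 75.9 and 72.0 TPM to 0.3, 0.65 and 0.47 TPM (log2 change -5.68 ± 0.29 (SE), adjusted p = 1.82e-08); near-identical alkaline phosphatase genes could share its reads. KCNN4 (a calcium-activated potassium channel; chr19:43766533-43781261) went from 326, 327 and 314 to 23.5, 24.5 and 24.7 TPM (log2 change -3.68 ± 0.057 (SE), adjusted p = 1.48e-11). The largest falls were chosen by the same rule, so the lack of overlap in both is by choice too. The splicing factor U2AF2, which recognises the polypyrimidine tract, fell from 248.9 ± 12.7 to 27.6 ± 1.47 TPM (log2 change -3.13), and GTF3C6, a subunit of the RNA polymerase III factor TFIIIC, from 205 ± 8.98 to 19.7 ± 1.33 TPM (-3.32). IGFBP5, which binds insulin-like growth factors, was 90.9 ± 6.4 TPM with SAHA alone and 98.9 ± 6.82 TPM in control, and stood at 7.84 ± 0.52 TPM with sonidegib and 6.07 ± 0.39 TPM with both. Its low values were thus those of the set with 5S RNA; the part of that set was not tested. LANCL2, which lies beside EGFR on chromosome 7 (chr7:55365448-55433742; EGFR at chr7:55019021-55211628), fell from 387, 382 and 339.5 to 32.3, 30.8 and 30.4 TPM (log2 change -3.53 ± 0.06 (SE), adjusted p = 2.13e-11), whereas EGFR was not called. ALPP, LANCL2 and U2AF2 were also lower than with sonidegib alone. The log2 difference was -1.58 ± 0.287 (SE) for ALPP (adjusted p = 0.00124). It was -1.049 ± 0.06 (SE) for LANCL2 (adjusted p = 3.89e-07). For U2AF2 it was -0.797 ± 0.072 (SE), adjusted p = 9.65e-06. Further members of the list were IGSF23, PRKAR1B (a regulatory subunit of protein kinase A), ATF5, SYT12 (a synaptotagmin), TNFSF13 (the cytokine APRIL), TRPM2 (a cation channel), FAM57A and PDCL3, with log2 changes between -4.05 and -3.13.

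**Figure D2:**
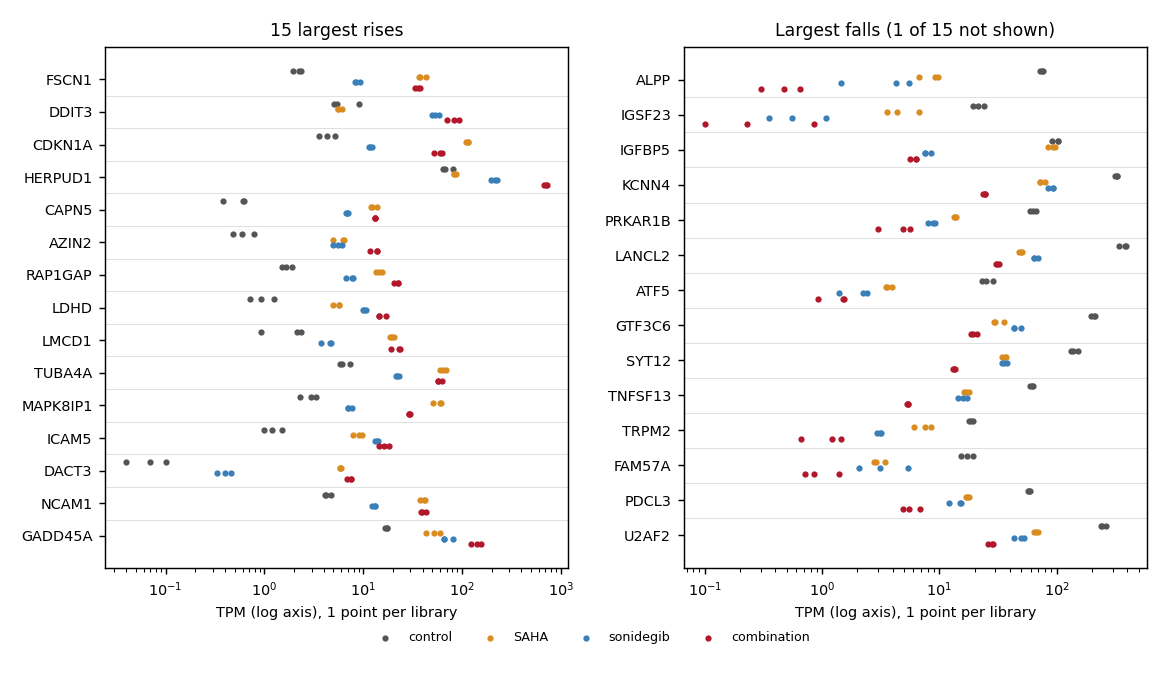
Each point is the TPM of 1 library on a log axis for the 15 largest rises (left) and for the largest falls (right; 1 of the 15 is not shown), coloured by group. Combination and control points never overlap, by the rule that chose the genes, while the single-drug points show that FSCN1 and CDKN1A were also high with SAHA and IGFBP5 also low with sonidegib.

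The endoplasmic reticulum (ER) folds secreted and membrane proteins, and when folding lags the unfolded protein response raises its chaperones. Of 20 tested genes of this response 11 rose and 4 fell, with a median log2 change of 0.33. HERPUD1, an ER membrane protein of the pathway that sends misfolded proteins to the proteasome (chr16:56932048-56944863), stood at 64.2, 67.5 and 81.3 TPM in control and 715, 726 and 683 TPM in the combination (log2 change 3.31 ± 0.079 (SE), adjusted p = 1.11e-10). SAHA alone left it at 84.1 ± 2.57 TPM and sonidegib alone at 212 ± 12.8 TPM, and within the set with 5S RNA the combination exceeded sonidegib by 1.73 ± 0.079 (SE), adjusted p = 1.22e-07. HSPA5 (BiP, the main chaperone of the ER) went from 153, 142 and 167 to 465, 484 and 504 TPM (log2 change 1.65 ± 0.082 (SE), adjusted p = 1.68e-08), beside 387 ± 35.2 TPM with SAHA and 187 ± 14.7 TPM with sonidegib. The lowest combination library of HSPA5 thus lay above every control library, while for HERPUD1 the rule for the largest rises required this. The falls were led by CRELD2, an ER-resident protein, from 33.6 ± 0.88 to 22.4 ± 3.37 TPM (-0.57), and the lectin chaperone CANX, from 518 ± 40.0 to 372 ± 10.6 TPM (-0.47), so the list did not move as 1 block.

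HSPA5 carries in its promoter the ER stress response element, searched as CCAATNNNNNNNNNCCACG on both strands; its first 5 letters overlap the CCAAT box searched further on. The element stood in 6 of the 19 ER genes with a promoter sequence (31.6%), HSPA5, HSP90B1, CALR, CANX, CRELD2 and XBP1, and in 14 of all 9759 promoters (0.143%). It was added after the values were seen. CANX, CRELD2 and XBP1 hold the letters and fell, while HSPA5, HSP90B1 and CALR hold them and rose. The HSPA5 sequence (chr9:125241344-125241593, minus strand, RefSeq on GRCh38.p14) is shown as the promoter of the most raised gene with a match, with the match in capitals, which begins at position -66 from the start. All promoters printed here are the 250 bases before the annotated start, 5′ to 3′ along the gene; motifs were searched in these and the following 50 bases, and a match is a description of letters.
HSPA5: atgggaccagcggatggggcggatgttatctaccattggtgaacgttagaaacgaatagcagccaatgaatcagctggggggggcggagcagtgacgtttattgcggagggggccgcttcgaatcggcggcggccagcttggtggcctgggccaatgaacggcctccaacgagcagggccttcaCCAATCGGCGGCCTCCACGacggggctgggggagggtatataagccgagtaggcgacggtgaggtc

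In the integrated stress response, phosphorylation of the translation factor eIF2 favours translation of ATF4, which then raises amino acid synthesis and transport genes and CHOP. Here 12 of 27 tested genes rose and 9 fell, and the median change was 0.13. The transcription factors split. DDIT3 and ATF3 rose, the latter from 3.39, 4.46 and 6.05 to 19.6, 30.2 and 34.5 TPM (log2 change 2.36 ± 0.23 (SE), adjusted p = 3.52e-06). ATF5, a leucine zipper factor of the same response, fell from 24.9, 28.9 and 23.0 to 1.5, 0.92 and 1.55 TPM (log2 change -3.52 ± 0.16 (SE), adjusted p = 7.76e-09). TRIB3, a pseudokinase that CHOP is known to raise, was lower as well, at 81.9, 83.5 and 82.9 TPM in control and 24.6, 23.6 and 23.4 TPM in the combination (log2 change -1.75 ± 0.051 (SE), adjusted p = 3.71e-10). With sonidegib alone TRIB3 stood at 113 ± 4.78 TPM, and with SAHA alone at 19.7 ± 0.76 TPM. DDIT3 and TRIB3, highest and near lowest in the list, therefore parted in the combination while both were above control with sonidegib alone.

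The composite element of CHOP and ATF4 was searched as TGATGNAA and stood in 5 of 20 promoters of the list (25.0%), ATF3, ASNS, CHAC1, SLC3A2 and SLC7A1, beside 1.55% of all promoters. These genes did not move alike: ATF3 and CHAC1 (1.43) rose, SLC7A1 (-1.04) and SLC3A2 (-0.84) fell, and ASNS was not called. ATF3 was the most raised of them (chr1:212565157-212565406, plus strand), with the match at position -191 in capitals.
ATF3: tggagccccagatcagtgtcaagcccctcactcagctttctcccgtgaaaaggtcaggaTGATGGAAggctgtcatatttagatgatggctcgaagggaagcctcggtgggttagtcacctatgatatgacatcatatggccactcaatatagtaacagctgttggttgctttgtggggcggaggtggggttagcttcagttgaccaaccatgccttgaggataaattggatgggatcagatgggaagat

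Genes that restrain the cell cycle rose together and those that drive its early phases fell. Of 19 brakes (CDK inhibitors, growth arrest genes and antiproliferative factors) 14 rose and 2 fell, with a median log2 change of 0.89; the called share over all genes was 29.7% higher. Beside CDKN1A, GADD45A climbed from 17.4, 16.6 and 17.5 to 122, 140.4 and 156 TPM (log2 change 2.94 ± 0.12 (SE), adjusted p = 4.17e-09), more than with SAHA (51.6 ± 8.01 TPM) or sonidegib (70.6 ± 8.67 TPM). The 2 falls were TOB1, an antiproliferative factor (21.4 ± 4.41 to 11.3 ± 1.2 TPM), and CDKN2A, which encodes p16 (239 ± 21.3 to 155 ± 7.17 TPM). Among 12 tested G1 cyclins, kinases and E2F factors 2 rose and 9 fell (median -0.74). CCND1 (cyclin D1) went from 67.0, 70.9 and 74.4 to 15.6, 15.5 and 19.5 TPM (log2 change -2.01 ± 0.098 (SE), adjusted p = 1.42e-08), below SAHA (37.2 ± 4.3 TPM) and sonidegib (51.7 ± 1.74 TPM) alone, and the phosphatase CDC25A from 13.3 ± 0.53 to 3.97 ± 0.49 TPM (-1.53). Its relative CCND3 (cyclin D3) moved the other way, from 65.4, 65.9 and 69.7 to 115, 121 and 122 TPM (log2 change 0.82 ± 0.052 (SE), adjusted p = 1.11e-07), and the repressor E2F8 rose from 2.13 ± 0.093 to 3.43 ± 0.29 TPM.

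DNA replication genes fell and mitotic genes split. Of 39 tested S phase genes 25 fell and 2 rose (median -0.46), beside 34.0% called lower over all genes. UHRF1, which guides maintenance DNA methylation, dropped from 17.7, 20.6 and 23.5 to 3.39, 3.09 and 3.87 TPM (log2 change -2.27 ± 0.12 (SE), adjusted p = 1.89e-08) and MCM5, a subunit of the replicative helicase, from 82.4, 87.6 and 77.3 to 19.6, 20.7 and 21.2 TPM (-1.96 ± 0.058 (SE), adjusted p = 3.73e-10). Against sonidegib alone, within the set with 5S RNA, the difference was smaller, -0.607 ± 0.115 (SE) for UHRF1 (adjusted p = 0.00164) and -0.277 ± 0.058 (SE) for MCM5 (adjusted p = 0.00285). Both rises were against this direction: TK1 (thymidine kinase) went from 62.2, 57.2 and 72.7 to 153, 160.1 and 161 TPM (1.30 ± 0.088 (SE), adjusted p = 1.76e-07) and GINS4 from 19.4 ± 1.56 to 28.4 ± 4.45 TPM. TK1 was 59.3 ± 5.07 TPM with SAHA and 133 ± 7.82 TPM with sonidegib, the level of the combination being the highest of the 4 groups. Among 34 genes of G2 and mitosis 10 rose and 7 fell (median 0.01), a majority that turned without combination replicate 3 (8 higher, 9 lower). CDK1, the mitotic kinase, rose from 41.1, 47.5 and 48.7 to 83.2, 90.7 and 111 TPM (log2 change 1.03 ± 0.13 (SE), adjusted p = 2.56e-05), and TOP2A, the topoisomerase of dividing cells, from 36.2, 35.6 and 41.8 to 69.7, 71.0 and 89.6 TPM (0.995 ± 0.13 (SE), adjusted p = 3.99e-05). PLK1 and the proliferation marker MKI67 went down, from 56.9 ± 3.38 to 35.1 ± 2.77 TPM and from 24.4 ± 2.86 to 15.2 ± 2.16 TPM. Over the list, the median change was -0.92 with SAHA and 0.35 with sonidegib against the same controls.

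Promoters of these lists hold the sites of different factors. The E2F site, searched as GGCGGGAA on both strands, stood in 11 of 35 S phase promoters (31.4%) and in 5.22% of all promoters. UHRF1, MCM3, PCNA, LIG1 and PRIM1 hold it and fell. CDT1, GINS2, RFC2, RFC4, RRM1 and CHAF1A hold it too and were not called. The CHR element TTTGAA stood in 20 of 28 G2 and mitosis promoters (71.4%, all promoters 9.19%) and the CCAAT box in 22 of 28 (78.6%, all 37.1%). CDK1 and TOP2A hold both and rose, while PLK1 and MKI67 hold both and fell. UHRF1 (chr19:4909251-4909500, plus strand) is printed as the most changed replication gene with an E2F match, which is in capitals on the opposite strand at position -104, and CDK1 (chr10:60778081-60778330, plus strand) as the most raised mitotic gene, with TTTGAA and CCAAT in capitals.
UHRF1: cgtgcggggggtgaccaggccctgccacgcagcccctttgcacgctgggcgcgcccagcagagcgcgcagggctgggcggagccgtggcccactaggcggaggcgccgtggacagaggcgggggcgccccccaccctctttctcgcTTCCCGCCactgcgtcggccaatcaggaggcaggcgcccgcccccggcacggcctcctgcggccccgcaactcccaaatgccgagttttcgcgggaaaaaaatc
CDK1: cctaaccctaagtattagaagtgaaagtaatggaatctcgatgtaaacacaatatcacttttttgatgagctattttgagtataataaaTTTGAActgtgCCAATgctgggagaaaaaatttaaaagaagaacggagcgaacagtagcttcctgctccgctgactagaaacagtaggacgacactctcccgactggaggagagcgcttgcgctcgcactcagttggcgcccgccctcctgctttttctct

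Repair by homologous recombination showed no common direction. Of 21 tested genes 3 rose and 5 fell (median 0.13), a majority that turned under 75th percentile and median-of-ratios scaling (6 higher, 5 lower in each) and with genes of at least 5 TPM only (3 and 2). RAD51D, a recombination protein, fell from 8.38 ± 1.41 to 2.26 ± 0.40 TPM (-1.52), and BARD1, the partner of BRCA1, from 6.05, 20.4 and 17.3 TPM, a wide spread, to 3.5, 4.26 and 5.38 TPM (-1.40 ± 0.35 (SE), adjusted p = 0.00434). RAD54L, a motor protein of strand exchange, rose from 9.87 ± 0.82 to 16.5 ± 1.02 TPM, and FANCE from 9.50 ± 1.34 to 14.4 ± 0.88 TPM.

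Ribosome biogenesis was the most uniform loss. MYC drives the genes that make ribosomal RNA and assemble ribosomes. Of the 28 tested members of this list 27 fell and none rose (median -0.86, lowest -2.29, highest -0.19). The list median was -0.52 with SAHA alone and -0.83 with sonidegib alone, against the same controls. Whether the list followed MYC, and the part of the set with 5S RNA, was not tested. MYC itself went from 79.7, 99.3 and 99.0 to 33.8, 35.2 and 37.9 TPM (log2 change -1.35 ± 0.091 (SE), adjusted p = 1.79e-07), beside 37.4 ± 3 TPM with SAHA alone and 73.7 ± 3.74 TPM with sonidegib alone. DKC1, the pseudouridine synthase of ribosomal RNA, dropped from 192, 201 and 195 to 35.1, 42.9 and 39.8 TPM (-2.30 ± 0.068 (SE), adjusted p = 3.79e-10) and nucleolin (NCL) from 754, 755 and 723 to 165, 169 and 193 TPM (-2.08 ± 0.073 (SE), adjusted p = 1.25e-09). Both were lower than with either drug, DKC1 being 65.0 ± 0.65 TPM with SAHA and 69.9 ± 3.45 TPM with sonidegib. Within the set with 5S RNA the combination differed from sonidegib alone by -0.819 ± 0.068 (SE) for DKC1 (adjusted p = 5.2e-06). The difference was -0.498 ± 0.073 (SE) for NCL (adjusted p = 0.000304). For MYC it was -1.028 ± 0.091 (SE), adjusted p = 8.5e-06. The E-box CACGTG that MYC and MAX bind stood in 7 of 21 promoters of the list (33.3%) and 10.4% of all. Messages for the ribosomal proteins did not follow: of 26 tested, 13 rose and none fell (median 0.12), RPS12 from 3667 ± 179 to 5136 ± 259 TPM and RPLP1 from 915 ± 24.1 to 1218 ± 75.8 TPM. They were as high with sonidegib alone (5189 ± 397 and 1253 ± 104 TPM), and all 83 ribosomal protein genes summed to 20.4% of TPM in control and 22.8% in the combination, beside 17.8% under SAHA and 23.9% under sonidegib, so this rise went with the set that holds 5S RNA; the part of that set was not tested.

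**Figure D3:**
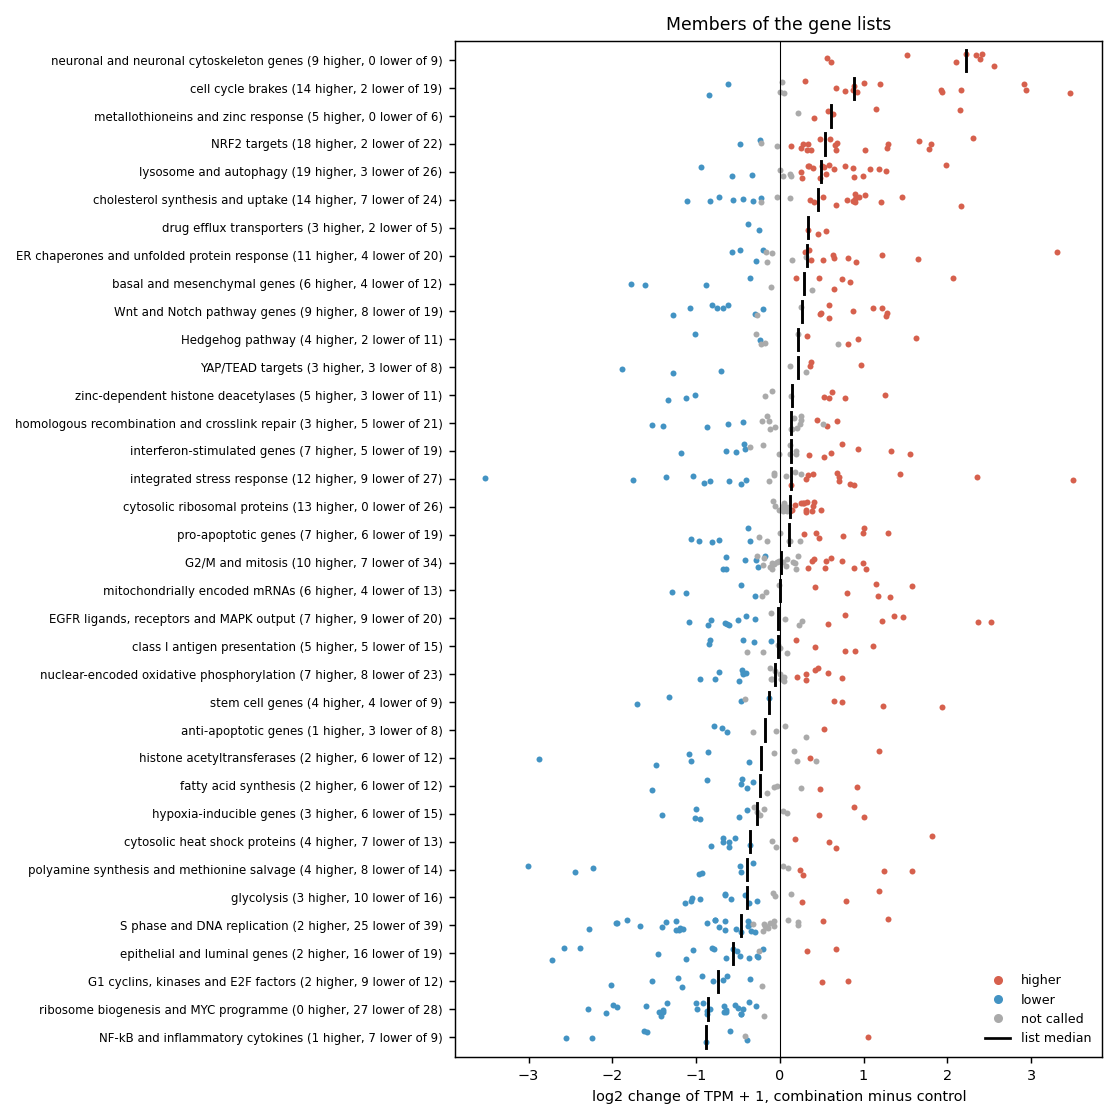
Each point is the log2 change (combination minus control) of 1 tested gene in a list, red where called higher, blue where called lower and grey where not called; black bars are list medians and lists are ordered by them. Neuronal genes (9 of the 9 that passed the level filter were higher, 3 of them only by way of treated libraries) stand at the top, and ribosome biogenesis (27 of 28 lower) and inflammatory cytokines (7 of 9 lower) at the bottom; the majorities of the G2/M, homologous recombination, Wnt and Notch, and oxidative phosphorylation lists turned under at least 1 alternative.

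Polyamines are made from ornithine and decarboxylated S-adenosylmethionine, and methionine is salvaged from the by-product. Of 14 tested genes 4 rose and 8 fell. ODC1, the rate-limiting enzyme of synthesis, fell from 64.2, 70.5 and 60.9 to 9.59, 12.3 and 11.7 TPM (log2 change -2.45 ± 0.10 (SE), adjusted p = 4.93e-09), and ADI1, an enzyme of methionine salvage, from 191, 204 and 191 to 25.5, 23.8 and 21.3 TPM (-3.004 ± 0.067 (SE), adjusted p = 9.62e-11). Of the catabolic enzymes, the polyamine oxidase PAOX fell from 1.74 ± 0.294 to 0.96 ± 0.0361 TPM (-0.48), while 2 others rose. SAT1, which acetylates spermidine and spermine, went from 567, 626 and 697 to 1598, 1844 and 2244 TPM (1.58 ± 0.12 (SE), adjusted p = 5.38e-07) and spermine oxidase (SMOX) from 13.5 ± 0.64 to 33.5 ± 3.49 TPM (1.24). ODC1 had its low level with sonidegib alone too (13.0 ± 1.57 TPM) and was 89.2 ± 5.37 TPM with SAHA, whereas ADI1 was low with each drug (20.2 ± 0.83 and 34.2 ± 0.99 TPM).

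Lipid genes divided by pathway. In cholesterol synthesis and uptake 14 of 24 tested genes rose and 7 fell (median 0.46). MSMO1, a sterol methyl oxidase, went from 15.9, 17.8 and 21.5 to 77.9, 81.2 and 97.2 TPM (log2 change 2.16 ± 0.14 (SE), adjusted p = 1.3e-07), beside 34.5 ± 5.1 TPM with SAHA and 36.7 ± 4.76 TPM with sonidegib, and HMGCS1, which makes HMG-CoA, from 16.1, 15.5 and 21.2 to 43.4, 45.9 and 62.1 TPM (1.46 ± 0.17 (SE), adjusted p = 1.59e-05). In the same route PMVK, a mevalonate pathway kinase, fell from 62.4 ± 3.1 to 28.5 ± 2.73 TPM (-1.11) and the sterol demethylase CYP51A1 from 30.4 ± 3.48 to 16.6 ± 2.07 TPM (-0.84). Of 12 fatty acid genes 2 rose and 6 fell. SREBF1, the transcription factor of that pathway, fell from 77.7, 77.9 and 88.0 to 20.4, 34.7 and 29.2 TPM (-1.53 ± 0.15 (SE), adjusted p = 3.92e-06); SAHA alone had it at 149 ± 1.04 TPM, above control, and sonidegib alone at 24.7 ± 2.72 TPM. The elongase ELOVL1 fell (-0.87) while ELOVL5 (0.48) and the phosphatase LPIN1 (0.92) rose.

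Energy metabolism genes went down in glycolysis and had no common direction in respiration. Of 16 tested glycolytic genes 10 fell and 3 rose (median -0.39). PKM (pyruvate kinase) went from 1367, 1368 and 1323 to 622, 604 and 626 TPM (log2 change -1.13 ± 0.039 (SE), adjusted p = 1.12e-09) and ENO1 (enolase) from 2727, 2521 and 2304 to 1234, 1183 and 1207 TPM (-1.06 ± 0.056 (SE), adjusted p = 2.66e-08), while PFKM and hexokinase HK1 rose by 1.19 and 0.79 on the log2 scale. GAPDH, often used as a reference gene, fell from 4146 ± 302 to 3209 ± 242 TPM (-0.37) and ACTB from 4389 ± 462 to 2777 ± 232 TPM (-0.66). Among hypoxia-inducible genes 3 of 15 rose, KDM3A (1.01) and NDRG1 (0.89) leading, and 6 fell, led by the peptide hormone ADM (-1.41) and the oxygen sensor EGLN1 (-1.01). Of 23 nuclear genes of oxidative phosphorylation 7 rose and 8 fell, with more rises than falls under quantile normalization (12 and 8); UQCRC2 (0.74) and SDHA (0.58) led the rises and the complex I subunit NDUFS3 (-0.78) was among the falls.

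Transcripts of the mitochondrial genome moved apart, 6 of 13 higher and 4 lower. MT-ND6, the complex I gene of the light strand, went from 2551, 2057 and 2352 to 7605, 7433 and 5887 TPM (log2 change 1.58 ± 0.12 (SE), adjusted p = 3.29e-07) and MT-ND5 from 2183, 1694 and 1900.1 to 5223, 4840.0 and 4249 TPM (1.31 ± 0.11 (SE), adjusted p = 8.36e-07). MT-CYB dropped from 3338, 2684 and 2888 to 1310.0, 1219 and 1113 TPM (-1.29 ± 0.095 (SE), adjusted p = 3.73e-07) and MT-ND2 from 3004, 2441 and 2713 to 1397, 1244 and 1118 TPM (-1.12 ± 0.10 (SE), adjusted p = 2.37e-06). MT-CYB was 4111 ± 393 TPM with SAHA alone and 965 ± 68.7 TPM with sonidegib alone, so the low values were those of the set with 5S RNA, and the set and sonidegib cannot be told apart. MT-ND6 was higher in the set with 5S RNA, at 4558.5 TPM or more in each of its 6 libraries against at most 4071 TPM in the other 6. It was 3718 ± 323 TPM with SAHA, 5005 ± 536 TPM with sonidegib and, within that set, higher with both drugs than with sonidegib (log2 difference 0.48 ± 0.12 (SE), adjusted p = 0.00711). Since strand handling is not stated, reads of MT-ND5 and MT-ND6, which lie side by side on opposite strands, may not be separated.

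Detoxification genes rose. NRF2 is the transcription factor that answers electrophiles and oxidants, and 18 of its 22 tested targets rose while 2 fell (median 0.54). AKR1C3, an aldo-keto reductase, went from 32.1, 35.2 and 38.0 to 173, 178 and 179.6 TPM (log2 change 2.30 ± 0.057 (SE), adjusted p = 1.45e-10) and AKR1C1 from 522, 629 and 549.9 to 2087, 1975 and 1894 TPM (1.81 ± 0.068 (SE), adjusted p = 2.2e-09); these near-identical genes can share reads. Both were highest with sonidegib alone (249.1 ± 3.37 and 2616 ± 62.8 TPM). NQO1, a quinone reductase and a standard NRF2 target, was among the 2 lower calls, from 203, 209 and 209 to 175, 186 and 168 TPM (-0.23 ± 0.053 (SE), adjusted p = 0.00232), but its change was 0.041 under quantile normalization and no longer called; the redox protein TXN fell from 209.6 ± 11.2 to 150.3 ± 8.16 TPM. The antioxidant element TGACNNNGC was found in 5 of 16 promoters of the list (31.2%) and 15.3% of all. Of 6 tested metallothionein and zinc response genes 5 rose, among them MT1X, a metal-binding protein, from 548, 543 and 522 to 2373, 2355 and 2431 TPM (2.15 ± 0.056 (SE), adjusted p = 1.9e-10) and MT1F from 34.1 ± 5.42 to 76.4 ± 5.99 TPM (1.15).

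Protein quality control outside the ER was mixed. Of 13 tested cytosolic heat shock genes 4 rose and 7 fell. DNAJB1, a co-chaperone of HSP70, went from 119, 127 and 130.3 to 428, 429.8 and 470.0 TPM (log2 change 1.81 ± 0.051 (SE), adjusted p = 3.07e-10), beside 462 ± 16.0 TPM with SAHA alone. HSPA1A, the inducible HSP70, stood at 151 ± 7.09 TPM in control, 240.1 ± 1.89 TPM in the combination and 762 ± 50.6 TPM with SAHA alone, from which the combination differed by -1.66 ± 0.053 (SE), adjusted p = 5.9e-09; its reads may be shared with HSPA1B. CRYAB and DNAJA1 fell (-0.68 and -0.82). Among 26 lysosome and autophagy genes 19 rose and 3 fell (median 0.49). WIPI1, an early autophagosome protein, went from 9.91, 10.3 and 12.0 to 43.0, 48.6 and 44.3 TPM (1.99 ± 0.077 (SE), adjusted p = 2.78e-09) and MAP1LC3B, which coats autophagosomes, from 45.8, 47.5 and 55.2 to 108, 127 and 127 TPM (1.27 ± 0.09 (SE), adjusted p = 2.58e-07). The autophagy receptor SQSTM1 (p62) moved against them, from 476, 468 and 408 to 230.4, 226 and 247 TPM (-0.94 ± 0.072 (SE), adjusted p = 4.89e-07), and the protease CTSZ fell too (-0.57).

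Some genes of the 2 drugs' targets were called, in a comparison where 63.7% of all tested genes were called. SMO stood at 0.86, 1.01 and 0.84 TPM in control and 0.18, 0.05 and 0.09 TPM in the combination, with no overlap; being under the mean level of 1 TPM it was tested only without that filter (log2 change -0.78 ± 0.099 (SE), adjusted p = 0.000131). GLI1 was likewise low, at 0.09, 0.09 and 0.1 TPM in control and 1.25, 1.36 and 1.58 TPM in the combination (1.13 ± 0.19 (SE), adjusted p = 0.00104), and reached 1.76 ± 0.66 TPM with SAHA alone and 0.62 ± 0.34 TPM with sonidegib alone. The receptor and readout PTCH1 rose from 2.42, 2.19 and 2.81 to 4.89, 6.78 and 5.26 TPM (0.93 ± 0.14 (SE), adjusted p = 0.000113), and HHIP was at 0, 0 and 0 TPM against 0, 0 and 0.2 TPM (adjusted p = 0.592). GLI2 and SHH were listed at 0 in all 6 libraries. Among the 11 Hedgehog genes that passed the level filter 4 rose and 2 fell; the co-receptors went opposite ways, CDON from 1.81, 1.43 and 2.49 to 7.81, 7.37 and 8.49 TPM (1.63 ± 0.13 (SE), adjusted p = 6.04e-07) and BOC from 3.91, 3.56 and 5.62 to 1.56, 2.05 and 1.31 TPM (-1.01 ± 0.16 (SE), adjusted p = 0.000149). SPOP, an adaptor in GLI degradation, fell by a little (-0.24) and lost its call under 10 of the 25 alternatives.

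Of the 11 zinc-dependent histone deacetylase genes 5 rose and 3 fell. HDAC2, a nuclear class I enzyme, went from 299, 261 and 295 to 113, 131 and 149 TPM (log2 change -1.12 ± 0.11 (SE), adjusted p = 2.58e-06), lower than with SAHA (178 ± 18.7 TPM) or sonidegib (171 ± 11 TPM), and the class II gene HDAC7 from 21.5 ± 1.6 to 7.89 ± 0.14 TPM (-1.34). HDAC3 rose from 59.3 ± 2.29 to 86.2 ± 6.91 TPM (0.53), HDAC5 from 17.8 ± 1.3 to 44.2 ± 2.15 TPM (1.26), HDAC10 by 0.78 and the tubulin deacetylase HDAC6 from 8.66 ± 0.51 to 13.9 ± 1.02 TPM (0.62). HDAC1 (91.1, 96.9 and 107 against 104, 107 and 113 TPM, adjusted p = 0.0826) and HDAC8 (adjusted p = 0.51) were not called; HDAC1 was called higher under 7 alternatives, 75th percentile scaling among them (0.215). Among 12 tested genes of enzymes that add acetyl groups 6 fell and 2 rose. KAT2A (GCN5) dropped from 35.0, 37.1 and 33.8 to 3.96, 3.48 and 4.42 TPM (-2.88 ± 0.084 (SE), adjusted p = 3.71e-10) and KAT5 (TIP60) from 53.7, 55.3 and 52.3 to 16.1, 19.0 and 21.4 TPM (-1.47 ± 0.12 (SE), adjusted p = 1.02e-06). Against sonidegib alone KAT2A differed by -0.38 ± 0.084 (SE), adjusted p = 0.00416. The coactivator NCOA3 rose (1.19). KAT6A (0.37) rose with a call that was lost without combination replicate 3 or control replicate 2.

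Most lineage genes of luminal epithelium fell. Of 19 tested epithelial and luminal genes 16 fell and 2 rose (median -0.56). The luminal transcription factor SPDEF went from 103, 94.8 and 92.9 to 16.5, 14.2 and 15.4 TPM (log2 change -2.58 ± 0.071 (SE), adjusted p = 2.7e-10), beside 16.0 ± 1.15 TPM with SAHA alone. It differed from sonidegib alone by -1.52 ± 0.071 (SE), adjusted p = 1.37e-07. LY6D, a surface antigen, went from 72.7, 61.7 and 59.6 to 9.76, 8.16 and 8.85 TPM (-2.72 ± 0.10 (SE), adjusted p = 2.05e-09). E-cadherin (CDH1) was 1 of the 2 rises, from 20.9, 18.4 and 23.0 to 32.1, 32.6 and 35.9 TPM (0.67 ± 0.084 (SE), adjusted p = 2.84e-05); the other, ELF3 (0.32), lost its call without control replicate 1 (0.282) and when only the 2 groups were fitted. Of 12 basal and mesenchymal genes 6 rose and 4 fell. SNAI1, a repressor of E-cadherin, rose from 2.06, 2.08 and 2.52 to 11.1, 11.8 and 14.7 TPM (2.07 ± 0.12 (SE), adjusted p = 5.03e-08) beside the rise of CDH1, and the protease MMP2 rose from 1.45 ± 0.16 to 3.39 ± 0.25 TPM. The basal keratins KRT6B and KRT6A, close copies of each other, fell (-1.78 and -1.61). Stem cell genes divided 4 to 4: ALDH1A1 (19.1, 20.1 and 22.4 to 48.9, 47.2 and 53.0 TPM, 1.24 ± 0.078 (SE), adjusted p = 1.05e-07) and KLF4 (1.93) rose, and ALDH1A3 (95.2, 105 and 113 to 36.2, 42.7 and 45.0 TPM, -1.32 ± 0.092 (SE), adjusted p = 2.29e-07) and PROM1, which encodes CD133 (-1.71), fell.

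Neuronal genes are known to answer deacetylase inhibitors, and the list summed to 56.99 to 65.17 TPM in control libraries. They were called higher in the 9 of 16 cases that reached the test level (median 2.22). That level was a mean over all 12 libraries, and SYP, TUBB4A and MAPT, with a mean under 1 TPM in control, passed it only through treated libraries, so for them the filter itself favours a rise. Of the 7 that did not reach it, STMN3, a neuronal stathmin, was present in control and fell, from 1.09, 1.77 and 2.07 to 0.24, 0.52 and 0.29 TPM (log2 change -0.957 ± 0.152 (SE), adjusted p = 0.000646, fitted without the filter). TUBB3, the neuronal beta tubulin, went from 14.7, 13.3 and 15.8 to 78.9, 83.5 and 84.6 TPM (log2 change 2.42 ± 0.07 (SE), adjusted p = 3.52e-10) and TUBB4A from 0.47, 0.15 and 0.73 to 7.28, 7.34 and 7.67 TPM (2.56 ± 0.13 (SE), adjusted p = 2.07e-08). Their level was higher with SAHA alone (100.2 ± 2.48 and 17.0 ± 0.47 TPM) than in the combination, TUBB4A by a log2 difference of -1.09 ± 0.13 (SE), adjusted p = 3.85e-05. The median of the list was 2.70 with SAHA alone and 0.84 with sonidegib alone, against the same controls. A few genes crossed from near 0: BMP6 (0.07, 0.17 and 0.15 to 6.51, 7.92 and 8.68 TPM), a secreted growth factor, DACT3 (0.04, 0.07 and 0.1 to 6.87, 7.6 and 7.46 TPM) and the kinesin KIF5C (0.12, 0.17 and 0.26 to 6.79, 6.58 and 8.44 TPM) were the 3 protein-coding genes under 0.5 TPM in every control and at least 5 TPM in every combination library. With SAHA alone they stood at 6.05 ± 0.16, 5.81 ± 0.081 and 8.97 ± 0.92 TPM, in that order. The reverse held for PRR19 (10.6, 9.48 and 9.1 to 0.25, 0.32 and 0.34 TPM), BEND3 (5.34, 6.36 and 6.43 to 0.21, 0.27 and 0.21 TPM) and the potassium channel subunit KCNS1 (5.65, 5.49 and 5.22 to 0.14, 0.25 and 0.17 TPM).

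The EGFR ligands that reached the test level rose, and EGFR itself was not called. Among 20 tested genes of EGFR signalling and MAPK output 7 rose and 9 fell. The ligands AREG, which went from 0.95, 2.18 and 1.48 to 12.6, 11.3 and 16.5 TPM (log2 change 2.53 ± 0.22 (SE), adjusted p = 1.61e-06), and HBEGF rose. HBEGF went from 0.63, 1.13 and 1.2 to 9.19, 8.71 and 9.51 TPM (2.36 ± 0.13 (SE), adjusted p = 2.65e-08), above SAHA (5.84 ± 0.53 TPM) and sonidegib (3.06 ± 0.18 TPM). TGFA rose from 7.22 ± 0.877 to 13.0 ± 1.5 TPM (0.77). Of ligands under the test level, fitted without the filter, BTC was lower, from 0.55, 0.64 and 0.89 to 0.29, 0.22 and 0.55 TPM (-0.326 ± 0.106 (SE), adjusted p = 0.0388), and EREG lay at or under 0.06 TPM in all 6 libraries. The receptor ERBB3 fell from 17.2 ± 0.88 to 9.1 ± 1.08 TPM (-0.86) and the AP-1 factor FOSL1 from 4.99 ± 0.42 to 1.85 ± 0.50 TPM (-1.08). In the YAP and TEAD list 3 of 8 rose and 3 fell: CCN2, a secreted matrix protein, from 6.43, 7.27 and 6.92 to 15.1, 11.6 and 17.0 TPM (0.97 ± 0.12 (SE), adjusted p = 3.01e-05) against TEAD4, from 50.4, 44.9 and 43.0 to 12.0, 10.9 and 12.5 TPM (-1.88 ± 0.08 (SE), adjusted p = 5.13e-09). Against sonidegib alone TEAD4 differed by -0.982 ± 0.08 (SE), adjusted p = 4.83e-06. TEAD1 rose (0.37) and AJUBA fell (-1.28). Of 19 Wnt and Notch genes 9 rose and 8 fell, reversed to 7 and 8 without combination replicate 2 or control replicate 2; the Notch ligand JAG2 (1.28) and the Wnt receptor FZD7 (1.26) rose, and the Wnt antagonist DKK1 (-1.27) and the Notch target HES4 (-1.07) fell.

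Inflammatory genes mostly fell. Of 9 tested NF-kB targets and cytokines 7 fell and 1 rose (median -0.88). CSF1, the macrophage growth factor, went from 13.9, 15.5 and 16.7 to 2.66, 2.03 and 2.68 TPM (log2 change -2.24 ± 0.12 (SE), adjusted p = 2.34e-08), beside 2.65 ± 0.39 TPM with SAHA alone, and the chemokine CXCL1 from 8.4, 11.6 and 14.4 to 0.59, 0.62 and 2.5 TPM (-2.55 ± 0.38 (SE), adjusted p = 0.000102). The rise was TNFAIP3 (A20), a brake on NF-kB, from 1.65, 1.82 and 3.08 to 5.62, 3.96 and 7.31 TPM (1.054 ± 0.20 (SE), adjusted p = 0.000686). Interferon-stimulated genes split 7 higher to 5 lower of 19, also within 1 family: IFIT1 rose (1.55) and IFIT3 fell (-1.18), OASL rose (1.33) and the RNA sensor DDX58 fell (-0.64). In class I antigen presentation 5 of 15 rose and 5 fell. The stress ligands of natural killer cells rose, MICA from 22.9, 26.3 and 22.8 to 49.1, 53.3 and 56.5 TPM (1.11 ± 0.095 (SE), adjusted p = 1.23e-06) and MICB from 23.5, 25.3 and 25.9 to 43.9, 46.3 and 51.6 TPM (0.90 ± 0.078 (SE), adjusted p = 1.39e-06), and the peptide-processing genes PSMB8 (-0.84) and ERAP1 (-0.84) fell. MICA was 141 ± 3.39 TPM with SAHA alone, and the combination was lower (log2 difference -1.39 ± 0.095 (SE), adjusted p = 5.56e-07).

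Cell death genes did not share a direction. Of 19 pro-apoptotic genes 7 rose and 6 fell. Among the BH3-only genes, whose proteins neutralise or activate BCL2 relatives, BMF (1.82, 3.41 and 3.22 to 7.18, 9.82 and 7.74 TPM, log2 change 1.29 ± 0.17 (SE), adjusted p = 4.33e-05), BCL2L11, which encodes BIM (12.8, 12.6 and 11.6 to 23.7, 28.2 and 25.0 TPM, 0.99 ± 0.083 (SE), adjusted p = 9.83e-07), and PMAIP1, which encodes NOXA (3.4, 3.68 and 5.51 to 7.31, 9.42 and 11.4 TPM, 1.0 ± 0.19 (SE), adjusted p = 0.000682), rose. BIK (16.0, 15.6 and 14.6 to 6.13, 6.92 and 7.57 TPM, -1.06 ± 0.12 (SE), adjusted p = 1.24e-05) and BID (88.8, 121 and 129 to 52.9, 60.5 and 57.2 TPM, -0.96 ± 0.12 (SE), adjusted p = 2.21e-05) fell. No control library overlapped a combination library in any of the 5, which was common. Over all genes the combination libraries lay wholly above control for 31.2% and wholly below for 35.6%. Of 8 anti-apoptotic genes MCL1 rose (0.53) and 3 fell, among them CFLAR, an inhibitor of caspase 8 (-0.78), and XIAP (-0.69). Drug efflux genes were low: of 5 tested, ABCC1 (0.45) and ABCA3 (0.56) were among 3 that rose, and ABCC5 (5.09, 5.88 and 7.23 to 4.11, 3.84 and 5.31 TPM, overlapping, -0.38 ± 0.13 (SE), adjusted p = 0.0242) and ABCC4 (-0.24 ± 0.094 (SE), adjusted p = 0.04) were lower. ABCC4 lost its call under 13 and ABCC5 under 5 of the 25 alternatives. ABCB1 (0.38, 0.41 and 0.54 TPM in the combination, adjusted p = 0.458) and ABCG2 (adjusted p = 0.601) stayed under the test level.

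Genes beyond both single drugs were more often low than high. In 373 genes (2.68%) the combination was called higher, and in 1104 (7.92%) lower, than control, SAHA and sonidegib alike; in 360 and 1056 of these the 3 combination libraries did not overlap any of the other 9. These counts describe position and do not test whether the drugs' effects add up. The 373 became 217 without combination replicate 3, and 703 to 810 under 3 other scalings. Under the same 3 scalings the 1104 became 913 to 928, so the excess of lower genes was smaller there. By the smaller of the differences from the single drugs, HERPUD1, MSMO1 and CRY2 led the higher genes. CRY2, a repressor of the circadian clock, stood at 1.91, 2.74 and 2.14 TPM in control, 5.61 ± 0.37 TPM with SAHA, 6.76 ± 1.4 TPM with sonidegib and 15.02, 18.5 and 15.1 TPM with both (against control 2.399 ± 0.14 (SE), adjusted p = 5.81e-08). H1F0, a linker histone of resting and differentiated cells, stood at 67.0 ± 7.35 TPM, 204 ± 11 TPM with SAHA, 158 ± 4.51 TPM with sonidegib and 447 ± 8.59 TPM with both (2.73 ± 0.07 (SE), adjusted p = 1.73e-10). For MT1X the same 4 means ran 538, 1224, 889 and 2387 TPM. In each of these genes both drugs alone lay between control and combination. The remaining leaders were DNAJB5 (log2 change 2.49), AZIN2 (3.12), GADD45A, NBEA (1.90) and SPTY2D1 (1.90).

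On the low side KCNN4, ALPP, IRX6, TNFSF13, SYT12, KCTD14, CCDC9B, CABLES1 and PDCL3 were among the 10 leaders, in that order. KCNN4 was 74.4 ± 4.18 TPM with SAHA, 90.8 ± 5.31 TPM with sonidegib and 24.2 ± 0.66 TPM with both, below SAHA by a log2 difference of -1.58 ± 0.057 (SE), adjusted p = 1.04e-08 and below sonidegib by -1.86 ± 0.057 (SE), adjusted p = 1.01e-08. IRX6, a homeobox factor, went from 25.0, 26.5 and 23.4 to 2.4, 2.67 and 2.93 TPM (-2.83 ± 0.083 (SE), adjusted p = 3.71e-10), with 9.58 ± 0.50 TPM under SAHA and 9.34 ± 0.48 TPM under sonidegib. CABLES1, which binds cyclin-dependent kinases, was 4.80 ± 1.41 TPM with SAHA and 4.92 ± 1.12 TPM with sonidegib, beside 6.37 ± 0.51 TPM in control, while the combination stood at 1.56, 1.86 and 1.02 TPM (-1.58 ± 0.20 (SE), adjusted p = 2.46e-05). TNFSF13 overlaps its neighbour TNFSF12, so the reads of the pair may not be separated.

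**Figure D4:**
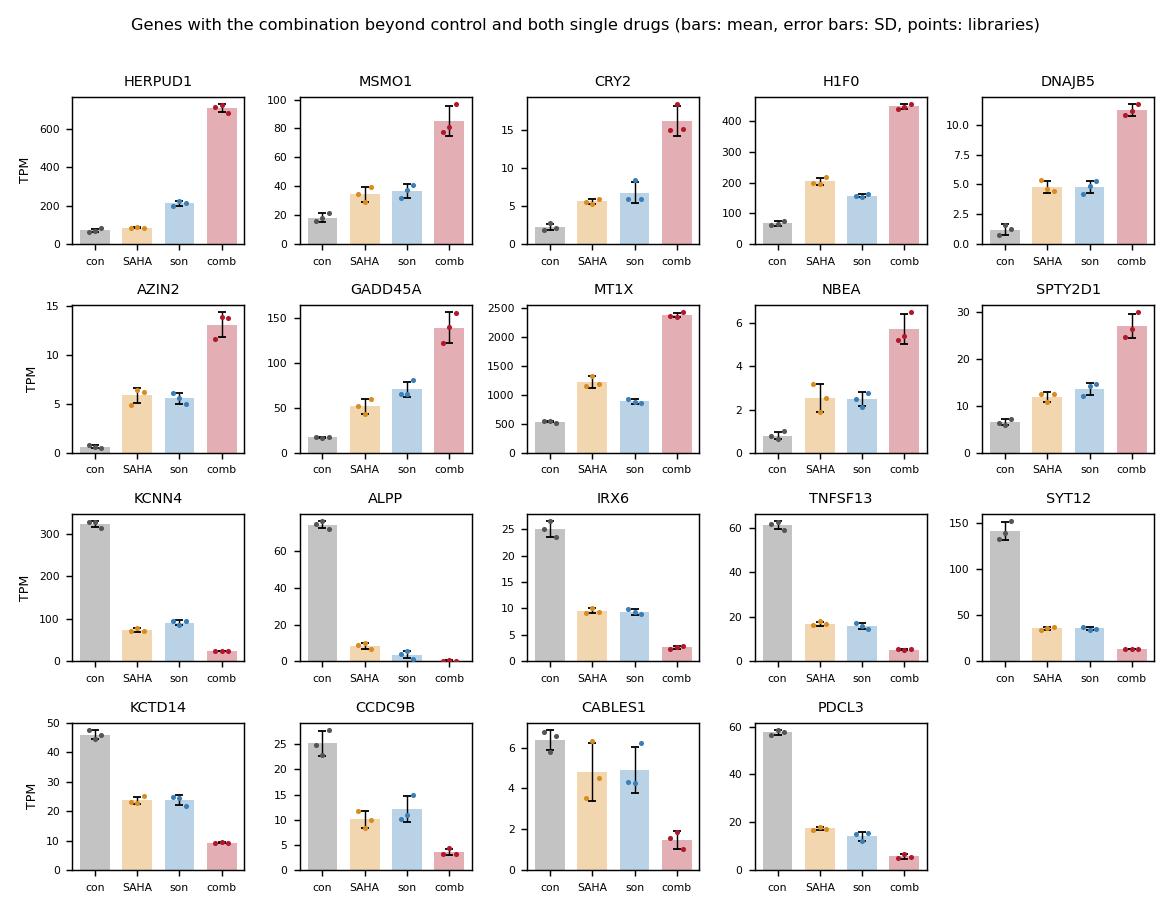
Bars are group means in TPM from a linear axis starting at 0, error bars are SD and points are the 3 libraries of control (con), SAHA, sonidegib (son) and combination (comb), for the 10 highest and the lowest genes beyond both drugs (1 of the 10 lowest is not shown). The combination exceeds the other 9 libraries in the upper rows and lies under them in the lower rows, as the choice of genes requires, and CABLES1 shows single-drug levels close to control.

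Some genes were moved in opposite directions by the single drugs. SAHA raised and sonidegib lowered 671 protein-coding genes that averaged 5 TPM or more; in the combination 92 of them were higher than control (SAHA's direction), 311 lower (sonidegib's direction) and 268 not called. SAHA lowered and sonidegib raised 402, of which 143 were higher (sonidegib's direction), 78 lower (SAHA's direction) and 181 not called in the combination. Over all genes 29.7% were called higher and 34.0% lower. All these comparisons share the 3 control libraries, and neither the classes nor the directions were tested against each other. Combination and sonidegib libraries are also of the set with 5S RNA, and control and SAHA libraries of the set without it. In these counts sonidegib's direction and that of the set cannot be told apart. CPA4, a carboxypeptidase, went from 12.0, 10.8 and 7.82 TPM to 3.45, 1.48 and 2.03 TPM (log2 change -1.78 ± 0.20 (SE), adjusted p = 1.01e-05) although SAHA alone had it at 76.3 ± 0.98 TPM, and sonidegib at 1.17 ± 0.21 TPM. STC1, a secreted glycoprotein, was 108 ± 13.4 TPM with SAHA, 11.7 ± 0.68 TPM with sonidegib and 46.3, 45.3 and 60.4 TPM with both, above control (0.37 ± 0.13 (SE), adjusted p = 0.0242), a call lost without combination replicate 3, control replicate 1 or control replicate 2. CCN1, a matrix protein, was alike (0.36; call lost without combination replicate 3 or control replicate 1). TNNC1 and TMEM104 fell (-0.75 and -0.50).

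In the reverse class ERBB2, the receptor of the EGFR family known as HER2, was 10.3, 9.34 and 11.5 TPM in control, 24.4 ± 1.91 TPM with sonidegib, 3.94 ± 0.81 TPM with SAHA and 5.65, 7.39 and 6.39 TPM with both, a fall (-0.61 ± 0.13 (SE), adjusted p = 0.00184). TOP2A was 81.4 ± 3.79 TPM with sonidegib alone (combination minus sonidegib -0.092 ± 0.13 (SE), adjusted p = 0.616) and 16.2 ± 3.11 TPM with SAHA alone, from which the combination differed by 2.19 ± 0.13 (SE), adjusted p = 2.03e-07. CHODL (adjusted p = 0.572), CAGE1 (0.47) and TSC22D3 (0.0931), a glucocorticoid-induced leucine zipper protein, were not called against control. TSC22D3 was called higher under 6 of the 25 alternatives.

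**Figure D5:**
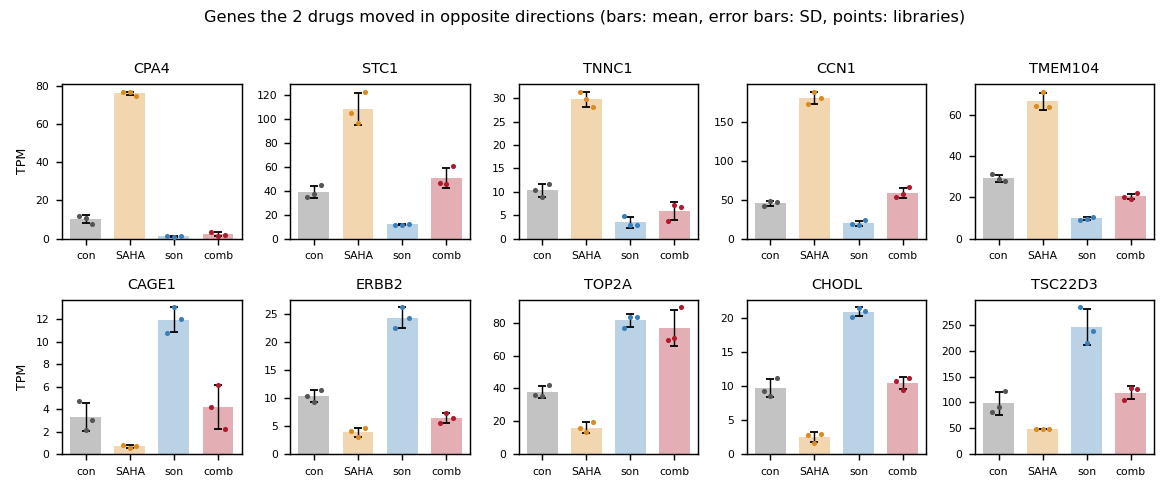
Bars are group means in TPM from a linear axis starting at 0, error bars are SD and points are libraries of control (con), SAHA, sonidegib (son) and combination (comb), for genes raised by SAHA and lowered by sonidegib (upper row) and the reverse (lower row). The combination sits near sonidegib for CPA4 and TOP2A, between control and SAHA for ERBB2, and near control for CHODL.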

How the data were processed

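RNA from 12 MDA-MB-468 libraries was sequenced, 3 each of control, SAHA, sonidegib and both. Per the submitters' processing notes, Bowtie2 2.4.1 and GRCh38 were used; the quantifier, annotation release, RNA selection and strand handling are not given in the sources used here. The authors deposited TPM per gene in 1 column per library, rounded to 2 decimals. Of 59324 identifiers 58611 matched GENCODE release 29, used for gene types and positions, and 713 did not.

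The 13937 genes averaging 1 TPM or more over the 12 libraries were analysed as log2(TPM + 1), with a pseudocount of 1, in limma 3.58.1 (R 4.3.3): 4 group means, 8 residual degrees of freedom, intensity trend, two-sided tests, Benjamini-Hochberg within a comparison, calls at an adjusted p under 0.05. All adjusted p-values are from this fit. The code was tested on simulated data. Genes under the level filter were fitted without it. The compared libraries, the gene lists and the tests were chosen with earlier results of these data known.

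Named genes were the 15 largest rises and falls among called protein-coding genes of at least 5 TPM without overlap of control and combination, the 2 largest called rises and falls of each list, the 10 highest and 10 lowest genes beyond both drugs, up to 5 with opposite single-drug effects each way, genes crossing between 0.5 and 5 TPM, and fixed targets; a few of them are not reported here. Promoters (RefSeq, GRCh38.p14, 250 bases before to 50 after the start) matched 9759 tested genes by symbol. The alternatives were other filters, pseudocounts, scalings, gene sets in the total, variance models, a replicate block and each library left out.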

Additional observations from a re-analysis of the deposited data

How the results depend on the processing

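Under 25 alternatives the count of genes called between combination and control (8883) ran from 6799 with a mean of at least 5 TPM, where fewer genes were tested, to 9418 without a filter, and from 8117 to 8945 with 1 library left out. Genes above control and both drugs (373) numbered 703 at 75th percentile scaling, 722 at median-of-ratios scaling and 810 after quantile normalization, and 217 to 421 with 1 library left out, 217 being without combination replicate 3; the cause was not tested. Those below all 3 (1104) ranged from 886 to 1198. Of 195 named genes 185 kept their call and direction under every alternative; ABCC4, ABCC5, CCN1, ELF3, HDAC1, KAT6A, NQO1, SPOP, STC1 and TSC22D3 did not, and NQO1 alone changed sign (0.041 after quantile normalization, -0.233 as deposited). Replicate numbers are not known to pair the samples. Same-numbered control and combination libraries deviated from their group means with r of -0.014, 0.058 and 0.037. With 3 libraries per group these values cannot decide whether samples were paired. With the replicate block 4263 genes were higher and 4881 lower. TPM carry no depth, so low genes such as GLI1 and SMO have no counting interval.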
